A study of Mus musculus with 63 samples.

Results

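The comparison was between CaMKII-positive cells and CaMKII-mDlx double-positive cells that were sorted from the same motor cortex suspension of each of 9 mice. Its members were the 18 libraries, of 63 in the series, whose mouse number stood in the count tables of both populations, apart from mice 3 and 8. The skin of mouse 3 ulcerated, and mouse 8 gave a double-positive library of 331215 counts. The mice were female C57BL/6J animals, 12 weeks old on arrival. All of them received a mixture of AAV5-CamKII-eGFP and AAV1-mDlx-NLS-mRuby2 in the primary motor cortex of both hemispheres. They were then given a full-thickness burn of the flank (4 mice, numbers 2, 20, 22 and 24) or a sham procedure in which the skin was only shaved (5 mice, numbers 15 to 19). Cells were taken 5 weeks later. Cells with eGFP and without mRuby2 made up the CaMKII-positive population, which the labels call excitatory neurons. Cells with both fluorophores made up the double-positive population, which the labels call inhibitory neurons. Membership thus rested on fluorescence driven by a CaMKII promoter and an mDlx enhancer in separate viruses. Astrocytes sorted with an antibody against ACSA2 and microglia sorted with an antibody against CD11b, from cortex caudal to the motor cortex of the same 9 mice, gave 18 further libraries that served as a reference.

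CaMKII is a calcium-dependent kinase that is abundant in glutamatergic neurons of the cortex, and Dlx genes encode homeobox factors of the GABAergic lineage. Promoters and enhancers from these genes are used to direct transgenes to excitatory and inhibitory neurons. Astrocytes take up glutamate and potassium from the extracellular space, while microglia are the resident macrophages of the brain and depend on the receptor Csf1r. Endothelial cells, with the mural cells around them, form the blood-brain barrier.

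The CaMKII-positive libraries held 13346143 to 134703744 counts and the double-positive libraries 14156588 to 27182881. The upper end of the first range was mouse 2, also the only pair of sequencing batch 1, and the other CaMKII-positive libraries held at most 29696946 counts. A count of 0 in a library allowed up to 3 counts, which was 0.0223 to 0.225 CPM (counts scaled to the library total). Mitochondrially encoded genes took 1.54% ± 0.561 of counts in CaMKII-positive and 0.708% ± 0.173 in double-positive libraries (SD, n = 9), and were higher in 9 of 9 mice (exact paired permutation test, two-sided, p = 0.00391, adjusted over 4 measures 0.0156). Genes with at least 10 counts numbered 18011 to 25537 and 16393 to 18114, and were more numerous in the CaMKII-positive library of 8 of 9 mice (exact p = 0.00781, adjusted 0.0156). The 50 highest genes took 15.6% and 16.9% of counts (exact p = 0.0312, adjusted 0.0417, and 0.0833 without mouse 16, 17, 18, 19, 20 or 22), and total counts gave an exact p of 0.480. The smallest p that 9 pairs allow is 0.00391. Between mice, the biological coefficient of variation was 0.551 in CaMKII-positive and 0.358 in double-positive libraries over the same 16612 genes.

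The 2 populations were first described by 4 marker genes. Levels below are CPM, and 3 levels in a row are the lowest, median and highest of the 9 libraries. Slc1a2 (ENSMUSG00000005089), the main glutamate transporter of astrocytes, stood at 6963, 11809 and 14683 CPM in CaMKII-positive cells against 172, 262 and 626 CPM in double-positive cells. The groups did not overlap, and within a mouse Slc1a2 was 21.0 to 68.7 times higher in CaMKII-positive cells (log2FC 5.04 ± 0.21, p.adj = 7.12e-11, where log2FC is CaMKII-positive over double-positive with its standard error, from the paired edgeR fit over all genes). Csf1r (ENSMUSG00000024621), the colony-stimulating factor receptor of microglia, ran the other way, with 4299, 5086 and 6570.1 in double-positive and 110.4, 322 and 586 CPM in CaMKII-positive libraries. Every double-positive library was above every CaMKII-positive one, by 7.34 to 59.5 times within a mouse (log2FC -4.45 ± 0.28, p.adj = 4.19e-09).

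Camk2a (ENSMUSG00000024617), the alpha subunit of the kinase that names the CaMKII promoter, stood at 17.8, 72.4 and 348 CPM in CaMKII-positive libraries and 16.0, 21.9 and 35.3 CPM in double-positive libraries (log2FC 1.48 ± 0.37, p.adj = 0.00353). It was higher in the CaMKII-positive library of 8 of 9 mice, the ranges overlapped, and mouse 24 held the highest value. Gad1 (ENSMUSG00000070880), which encodes the GABA-synthesising enzyme GAD67, stood at 1.01, 4.17 and 9.01 CPM in CaMKII-positive cells against 0, 0.634 and 2.08 CPM in double-positive cells (log2FC 2.29 ± 0.70, p.adj = 0.0137). It was thus higher in the CaMKII-positive library of 9 of 9 mice, although the labels call the double-positive cells inhibitory, and the ranges overlapped. In ACSA2-positive libraries Gad1 ran from 0.662 to 5.63 CPM (mean 2.84), which overlapped the range of CaMKII-positive libraries. Scaled to exon length, mean levels in CaMKII-positive libraries were 871 CPM per kb for Slc1a2, 52.3 for Csf1r, 14.3 for Camk2a and 0.606 for Gad1. In double-positive libraries the length-scaled means were 895 CPM per kb for Csf1r, 24.8 for Slc1a2, 3.31 for Camk2a and 0.110 for Gad1. The astrocyte gene led in the first population and the microglia gene in the second, which went against both labels, so the populations are named here by their sort. In bulk RNA, fewer cells of a type and less RNA per cell cannot be told apart.

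**Figure D1:**
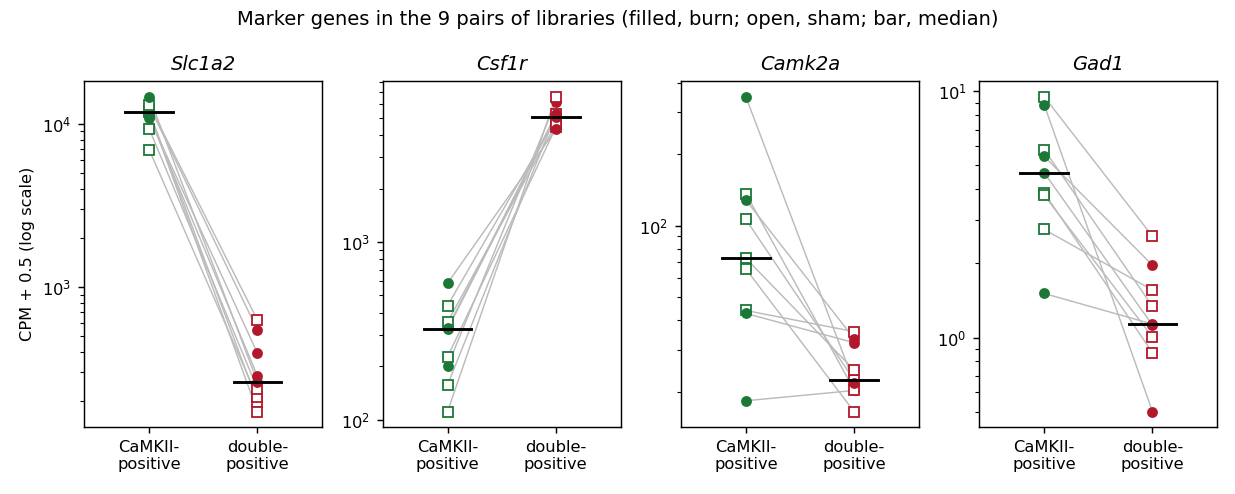
CPM + 0.5 on log axes for Slc1a2, Csf1r, Camk2a and Gad1 in the 9 CaMKII-positive (green) and 9 double-positive (red) libraries; lines join the libraries of a mouse, filled circles are burn and open squares sham mice, and bars are medians. Slc1a2 and Csf1r separate the populations without overlap in opposite directions, while the ranges of Camk2a and Gad1 overlap.

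Across all genes, 10492 of 29558 tested were called different, with a p.adj not above 0.05 and a log2FC of 1 or more in either direction. Of these, 5925 were higher in CaMKII-positive cells (20.0% of the genes tested) and 4567 were higher in double-positive cells (15.5%). All 9 mice gave the direction of the call for 4135 and 3392 of them. In 4361 genes (14.8%) every CaMKII-positive library was above every double-positive library, and in 2965 (10.0%) the reverse held. Fitted differences of at least 10-fold were called for 4176 genes higher in CaMKII-positive and 2022 higher in double-positive cells. The median log2FC of all genes was 0.07, and scaling by library size alone moved it by 0.19 to 0.26. Without mouse 2, 5390 and 4197 genes were called. With mice 3 and 8 included, 7379 and 3841 genes were called, and Camk2d, Abca1, Fos, Fosb, Actb, Eef1a1, Pdgfb, Tgfbr2, Mertk and Pros1 were among the genes called higher in double-positive cells with 9 mice that lost their call.

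Marker lists of astrocytes and microglia separated the populations without exception. All 13 astrocyte genes were higher in CaMKII-positive cells, with a median log2FC of 5.08, and all 16 microglia genes were higher in double-positive cells, with a median of -4.49. None of these 29 genes overlapped between the populations, against 14.8% and 10.0% of all genes in the 2 directions. Summed over the list, astrocyte genes gave 15528, 25416 and 28869 CPM in CaMKII-positive and 524, 752 and 1511 CPM in double-positive libraries. The microglia list gave 651, 1619.8 and 3136 CPM and 24169, 27675 and 32659.7 CPM. In the antibody-sorted reference, the astrocyte list summed to 41881 to 52741 CPM in ACSA2-positive cells and 210.2 to 379.8 CPM in CD11b-positive cells, and the microglia list to 180.2 to 342 and 28520.1 to 39757 CPM. Taken within a mouse, the astrocyte sum of CaMKII-positive libraries had a median of 53.0% of the ACSA2-positive sum, and the microglia sum of double-positive libraries a median of 79.6% of the CD11b-positive sum.

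Among the astrocyte genes, Slc1a3, a second glutamate transporter, stood at 1920.5, 2924 and 3651 in CaMKII-positive and 215, 261 and 349.6 CPM in double-positive libraries (log2FC 3.24 ± 0.12, p.adj = 2.66e-11). Aldoc, a glycolytic aldolase of astrocytes, stood at 1265, 2175 and 2589 CPM in CaMKII-positive libraries and 32.5, 54.7 and 127 CPM in double-positive libraries (log2FC 4.89 ± 0.19, p.adj = 3.63e-11). Gja1, which encodes connexin 43, stood at 1507, 1914 and 2261 CPM in CaMKII-positive cells against 21.5, 40.9 and 103 CPM in double-positive cells (log2FC 5.28 ± 0.24, p.adj = 1.45e-10). The 3 genes shared the pattern of Slc1a2, with every CaMKII-positive library on the high side. Among the microglia genes, Cx3cr1, the fractalkine receptor, stood at 2649, 3329 and 4366 in double-positive and 47.4, 165 and 311 CPM in CaMKII-positive libraries (log2FC -4.70 ± 0.30, p.adj = 4.27e-09). P2ry12, an ADP receptor of homeostatic microglia, stood at 1770.3, 2160.0 and 2630.1 CPM in double-positive libraries and 28.9, 77.4 and 122 CPM in CaMKII-positive libraries (log2FC -5.06 ± 0.26, p.adj = 4.24e-10). Double-positive libraries were the high side for both genes.

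C1qc, a chain of the complement recognition protein C1q, was the one microglia gene of 10 with a RefSeq promoter entry whose window, from 250 bases before to 50 bases after the start site, held the core motif GAGGAAGT of the myeloid factor PU.1. It stood at 1528, 1659 and 1805 CPM in double-positive cells against 44.8, 119 and 343 CPM in CaMKII-positive cells, with no overlap (log2FC -4.22 ± 0.31, p.adj = 1.97e-08). Its 250 bases before the start site are shown because the gene joins a microglia marker, a called difference and the motif (RefSeq, GRCm38.p6, chr4:136892915-136893164, minus strand, written 5′ to 3′ along the gene, with capitals for the match, which reads as GAGGAAGT on the opposite strand).
C1qc: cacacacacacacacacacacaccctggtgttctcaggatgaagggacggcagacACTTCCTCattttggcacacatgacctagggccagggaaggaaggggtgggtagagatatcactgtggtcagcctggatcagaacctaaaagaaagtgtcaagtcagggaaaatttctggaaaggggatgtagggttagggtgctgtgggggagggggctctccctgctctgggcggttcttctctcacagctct
The match covered bases 56 to 63 of the printed run and ended 187 bases before the start site. On either strand the motif was present in 1 of 10 microglia genes with an entry (10%), in 0 of 10 astrocyte genes with an entry and in 997 of 27025 genes of the table (3.69%). The nuclear factor I palindrome, TTGGC, any 5 bases and GCCAA, was present in 0 of 10, 0 of 10 and 12 of 27025 (0.0444%). These counts describe letters in windows of that length and carry no test.

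Neuronal lists gave calls toward CaMKII-positive cells alone, beside 20.0% of all genes called in that direction. Of 10 excitatory neuron genes, 4 were higher in CaMKII-positive cells and 0 in double-positive cells (median log2FC 1.27). These were Camk2a, Fezf2, Rorb and Nrgn. Rorb, a nuclear receptor of upper cortical layers, stood at 185, 352 and 411 in CaMKII-positive and 4.60, 7.30 and 28.6 CPM in double-positive libraries (log2FC 5.03 ± 0.23, p.adj = 1.52e-10), and its mean was 609 CPM in ACSA2-positive and 1.98 CPM in CD11b-positive cells. Fezf2, a factor of deep cortical layers, averaged 21.9 CPM in CaMKII-positive, 0.577 in double-positive, 48.8 in ACSA2-positive and 0.0914 CPM in CD11b-positive cells. The means of Rorb and Fezf2 were thus highest in ACSA2-positive cells. Nrgn, which encodes the postsynaptic protein neurogranin, stood at 4.27, 16.5 and 53.6 CPM in CaMKII-positive libraries and 2.53, 4.43 and 9.17 CPM in double-positive libraries (log2FC 1.49 ± 0.43, p.adj = 0.0107), with overlapping ranges. Cux2, another upper-layer factor, stood at 8.82, 12.9 and 21.0 CPM in CaMKII-positive cells against 5.63, 17.2 and 19.6 CPM in double-positive cells and was not called (p.adj = 0.177). Slc17a7, the vesicular glutamate transporter VGLUT1, had means of 11.0 and 3.04 CPM and was not called either (log2FC 1.06, p.adj = 0.128).

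Of 12 inhibitory neuron genes tested, 3 were higher in CaMKII-positive cells (Gad1, Dlx1 and Npy) and 0 in double-positive cells, a share close to the 20.0% of all genes. The median log2FC of the list was 3.29, or 3.17 with genes absent from a population set to their bound, with 2.55 without mouse 2 and 3.84 without mouse 18 or 19. Dlx1, a homeobox factor of interneurons, stood at 0, 1.24 and 6.37 in CaMKII-positive and 0, 0.134 and 0.841 CPM in double-positive libraries (log2FC 3.15 ± 1.17, p.adj = 0.0398), and the call was lost without any one of mice 2, 15, 20, 22 or 24. Npy, a neuropeptide of interneurons, stood at 0, 1.00 and 8.76 CPM in CaMKII-positive libraries and 0, 0 and 0.0831 CPM in double-positive libraries (log2FC 6.84 ± 1.40, p.adj = 0.00101). Slc32a1, the vesicular GABA transporter, averaged 0.334 CPM in CaMKII-positive libraries and had 0 counts in all 9 double-positive libraries, and was not called (p.adj = 0.0749). Vip, a peptide of another interneuron class, stood at 0, 0 and 15.2 CPM in CaMKII-positive cells against 0, 0 and 0.338 CPM in double-positive cells and was not called (p.adj = 0.374), but was called without mouse 20 (log2FC 6.37, p.adj = 0.0399). Summed inhibitory genes reached 4.68 to 29.3 CPM in CaMKII-positive and 1.25 to 4.56 CPM in double-positive libraries. The same sum was 2.81 to 17.5 CPM in ACSA2-positive and 0.715 to 2.00 CPM in CD11b-positive libraries.

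Of 10 general neuron genes, 5 were higher in CaMKII-positive and 0 in double-positive cells, beside 20.0% and 15.5% of all genes (median log2FC 1.93). Stmn2, a microtubule regulator of axons, averaged 12.8 ± 7.17 CPM in CaMKII-positive and 0.952 ± 0.740 CPM in double-positive libraries (SD), without overlap (log2FC 3.68 ± 0.44, p.adj = 4.83e-06). Snap25, a synaptic SNARE protein, stood at 6.01, 19.2 and 54.4 in CaMKII-positive and 3.36, 8.83 and 15.5 CPM in double-positive libraries (log2FC 1.10 ± 0.37, p.adj = 0.0251). Syt1, the calcium sensor of synaptic vesicles, stood at 1.15, 12.1 and 42.1 CPM in CaMKII-positive libraries and 1.08, 3.60 and 6.59 CPM in double-positive libraries (log2FC 1.32 ± 0.49, p.adj = 0.0374). The ranges of Snap25 and Syt1 overlapped, and leaving out mouse 17, 19, 20 or 24, or mouse 15 for Syt1, ended the call. Elavl4, a neuronal RNA-binding protein, stood at 5.68, 8.89 and 17.1 CPM in CaMKII-positive cells against 5.54, 7.64 and 12.5 CPM in double-positive cells (p.adj = 0.991). The Camk2 family was divided. Camk2g, the gamma subunit, stood at 125, 269.9 and 448 in CaMKII-positive and 42.0, 48.3 and 58.6 CPM in double-positive libraries (log2FC 2.15 ± 0.15, p.adj = 1.62e-08), whereas Camk2d, the delta subunit, was higher in double-positive cells, at 173, 208 and 248 CPM against 70.4, 109 and 128 CPM (log2FC -1.20 ± 0.10, p.adj = 5.24e-08). Camk2b was not called (means 9.89 and 9.45 CPM). Camk2n1, which encodes an inhibitor of the kinase, was higher in CaMKII-positive cells (log2FC 1.31 ± 0.18, p.adj = 1.58e-05), and Camk2n2 was not called. Of the Dlx family, 4 of 6 genes had enough counts to test and Dlx1 alone was called, beside 20.0% of all genes. Under alternatives, Dlx5 passed without the mouse as a block (log2FC 4.74), and Dlx2 and Dlx4 with mice 3 and 8 included (4.12 and 3.21). The family's median log2FC was 3.29, and 2.40 without mouse 22.

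Of the 15 marker lists, the endothelial list had the highest median. All 14 endothelial genes were higher in CaMKII-positive cells and none overlapped, beside 20.0% and 14.8% of all genes (median log2FC 6.70). Their summed level was 6276, 7939 and 17088 CPM in CaMKII-positive and 162, 211 and 603 CPM in double-positive libraries, 10.4 to 73.5 (median 43.2) times higher within a mouse. The highest double-positive sum, mouse 2, stood apart from the others, which ran from 162 to 232 CPM. Flt1, a receptor for vascular endothelial growth factor, stood at 1669, 2098 and 4607 CPM in CaMKII-positive libraries and 7.21, 15.3 and 115 CPM in double-positive libraries (log2FC 7.00 ± 0.46, p.adj = 6.18e-09). Slco1a4, an organic anion transporter of brain endothelium, stood at 823, 1114 and 2148 CPM in CaMKII-positive cells against 2.97, 4.94 and 66.1 CPM in double-positive cells (log2FC 7.37 ± 0.52, p.adj = 1.23e-08). Abcb1a, the efflux pump P-glycoprotein, stood at 549, 733 and 1687 in CaMKII-positive and 2.54, 5.23 and 39.5 CPM in double-positive libraries (log2FC 7.01 ± 0.47, p.adj = 7.08e-09). Slc2a1, the glucose transporter GLUT1, differed less, at 764, 927 and 1991 CPM in CaMKII-positive libraries and 79.3, 112 and 159 CPM in double-positive libraries (log2FC 3.12 ± 0.18, p.adj = 1.28e-09).

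All 10 mural cell genes were called higher in CaMKII-positive cells (median log2FC 5.72), and 9 of them did not overlap, beside 20.0% and 14.8% of all genes. Rgs5, a G protein regulator of pericytes, stood at 229, 589 and 958 CPM in CaMKII-positive cells against 2.61, 10.6 and 29.5 CPM in double-positive cells (log2FC 5.91 ± 0.45, p.adj = 3.46e-08). Pdgfrb, the pericyte receptor for platelet-derived growth factor B, stood at 173, 239 and 308 in CaMKII-positive and 2.21, 4.88 and 9.10 CPM in double-positive libraries (log2FC 5.40 ± 0.20, p.adj = 2.83e-11). Of 8 fibroblast genes, 4 were higher in CaMKII-positive cells, beside 20.0% of all genes: the collagens Col1a1, Col1a2 and Col3a1 and the proteoglycan Dcn (median of the list 2.72, and 3.41 without mouse 17). Col1a2 stood at 25.8, 58.0 and 99.2 CPM in CaMKII-positive libraries and 0.671, 3.59 and 6.07 CPM in double-positive libraries (log2FC 4.08 ± 0.24, p.adj = 2.05e-09). The ependymal and choroid plexus list had 5 of 7 genes higher, beside 20.0% of all genes (median 6.11). Its sum ranged over 7.78 to 319 CPM among CaMKII-positive libraries. Foxj1, the ciliogenesis factor of ependymal cells, stood at 1.52, 13.1 and 172 CPM in CaMKII-positive cells against 0, 0.779 and 2.57 CPM in double-positive cells, with overlapping ranges (log2FC 4.32 ± 0.85, p.adj = 0.000562).

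Cells of the oligodendrocyte lineage showed the same direction. All 10 precursor genes were higher in CaMKII-positive cells and 9 did not overlap, beside 20.0% and 14.8% of all genes. The precursor list had a median log2FC of 5.26, with sums of 363, 604 and 848 CPM against 6.64, 12.3 and 62.4 CPM. Cspg4, the NG2 proteoglycan, stood at 56.5, 105 and 139 in CaMKII-positive and 0, 2.19 and 6.07 CPM in double-positive libraries (log2FC 5.48 ± 0.43, p.adj = 4.84e-08). Pdgfra, the precursor receptor for platelet-derived growth factor A, stood at 72.2, 106 and 169.8 CPM in CaMKII-positive libraries and 0.953, 3.08 and 14.8 CPM in double-positive libraries (log2FC 4.99 ± 0.32, p.adj = 4.95e-09). Of 10 genes of mature oligodendrocytes, 9 were higher in CaMKII-positive cells, beside 20.0% of all genes (median 4.81). Mbp, myelin basic protein, stood at 41.9, 137 and 337 CPM in CaMKII-positive cells against 27.9, 34.3 and 52.9 CPM in double-positive cells, higher in 9 of 9 mice with overlapping ranges (log2FC 1.79 ± 0.29, p.adj = 9.76e-05). Mag, a myelin-associated glycoprotein, stood at 11.2, 24.6 and 80.0 in CaMKII-positive and 10.8, 16.7 and 22.3 CPM in double-positive libraries and was not called (p.adj = 0.0709).

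Blood-borne and border cells did not follow the microglia genes as one block. Of 9 genes of border macrophages and monocytes, 6 were higher in double-positive cells and 1 in CaMKII-positive cells, beside 15.5% and 20.0% of all genes (median log2FC -2.63). Mrc1, the mannose receptor of border macrophages, stood at 47.0, 73.0 and 107 CPM in double-positive libraries and 3.46, 15.1 and 28.3 CPM in CaMKII-positive libraries (log2FC -2.63 ± 0.31, p.adj = 4.51e-06). Ly6c2, a surface marker of inflammatory monocytes, went the other way, at 6.80, 23.6 and 62.7 CPM in CaMKII-positive cells against 0, 0.603 and 4.91 CPM in double-positive cells (log2FC 5.21 ± 0.64, p.adj = 6.03e-06). Its relative Ly6c1, of the endothelial list, moved the same way, with means of 414 and 3.61 CPM (log2FC 7.00). Whether Ly6c1 contributed to the Ly6c2 counts was not tested. Ccr2, the chemokine receptor of inflammatory monocytes, stood at 6.42, 14.4 and 53.2 in CaMKII-positive and 3.24, 9.20 and 19.4 CPM in double-positive libraries and was not called (p.adj = 0.130). Of 7 lymphocyte genes, 4 were higher in CaMKII-positive cells, beside 20.0% of all genes (Cd3e, Cd3d, Trbc2 and Nkg7; median 5.49, the same with absent genes at their bound). Cd3e, a chain of the T cell receptor complex, stood at 0.122, 7.63 and 10.5 CPM in CaMKII-positive libraries and 0, 0 and 0.897 CPM in double-positive libraries (log2FC 6.67 ± 1.24, p.adj = 0.00037). Cd3d and Nkg7 had 0 counts in all double-positive libraries, and mean levels in CaMKII-positive libraries were at least 117-fold and 169.7-fold higher, against 3 counts over the group.

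Neutrophil and red blood cell genes were at or near 0 in most libraries. Of 7 neutrophil genes, 1 was called, S100a9, a calcium-binding protein of granulocytes (beside 20.0% of all genes, with a list median of 3.10, the same at the bound, and 1.57 without mouse 2). It had counts in 4 CaMKII-positive libraries and in 0 double-positive libraries, and the call was lost without mouse 2 and under DESeq2 (log2FC 2.31, p.adj = 0.516). S100a8, its partner, was called without mouse 19, and Ngp without mouse 17 and with mice 3 and 8 included. Of 4 red blood cell genes tested, 1 was called, a share close to that of all genes, Alas2, an enzyme of haem synthesis in erythroid cells (log2FC 6.52 ± 1.31, p.adj = 0.000874; median of the list 1.71, or 3.61 at the bound, 3.15 without mouse 24 and 3.29 without the block). The haemoglobin genes Hba-a1 and Hba-a2 share nearly identical sequence and were counted in 1 CaMKII-positive library each.

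**Figure D2:**
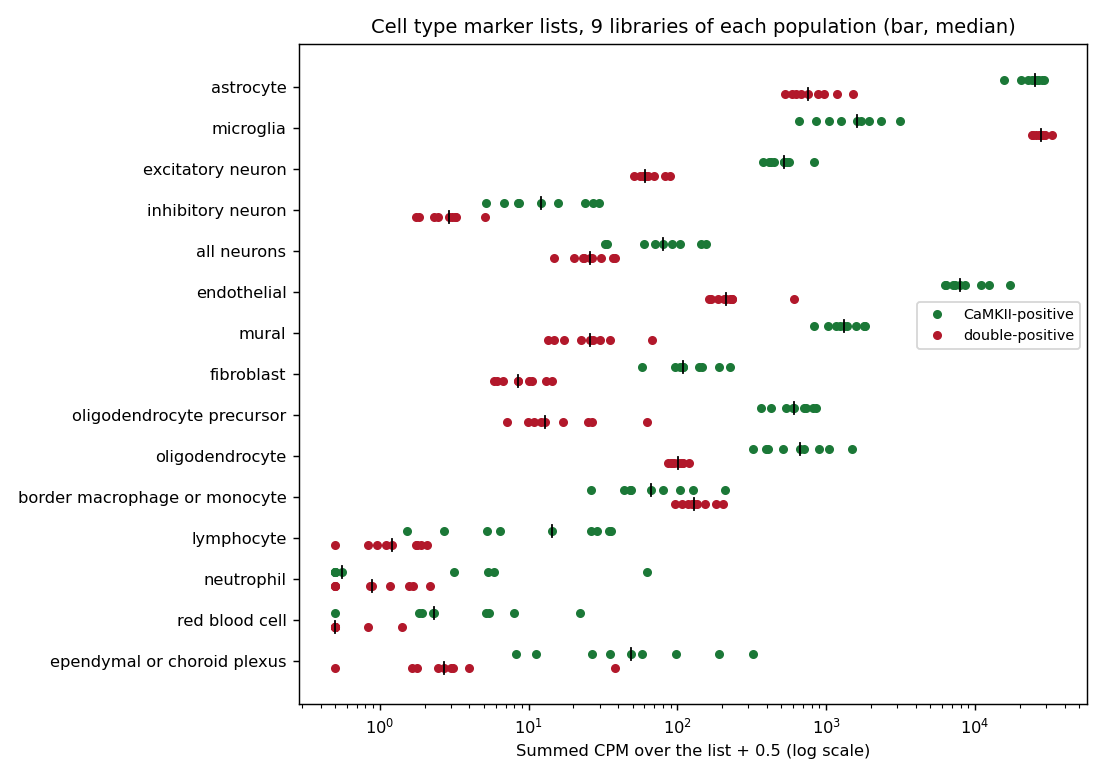
Summed CPM + 0.5 on a log axis for 15 cell type marker lists, with 1 point for each of 9 CaMKII-positive (green) and 9 double-positive (red) libraries and bars at the medians. The microglia list and most of the border macrophage points lie to the right in double-positive libraries, whereas astrocyte, endothelial, mural and oligodendrocyte lineage lists lie to the right in CaMKII-positive libraries without overlap.

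The 12 genes per direction with the widest difference were taken among named genes called in the same direction in all 9 mice with a mean of at least 20 CPM in the higher population. Sgms2, a sphingomyelin synthase, had the highest log2FC of these, at 39.8, 56.3 and 141 CPM in CaMKII-positive cells against 0, 0 and 3.24 CPM in double-positive cells (log2FC 8.40 ± 0.71, p.adj = 9.3e-08). Cyyr1 stood at 284, 395 and 773 in CaMKII-positive and 0.0706, 1.52 and 18.9 CPM in double-positive libraries (log2FC 7.70 ± 0.59, p.adj = 3.25e-08). Tbx3, a T-box factor, stood at 92.5, 115 and 242 CPM in CaMKII-positive libraries and 0, 0.402 and 8.56 CPM in double-positive libraries (log2FC 7.74 ± 0.69, p.adj = 1.69e-07). Myl9, a smooth muscle myosin light chain, Wnt5a, a secreted Wnt ligand, Foxl2, a forkhead factor, and Ret, the GDNF receptor kinase, were also in this set, with log2FC values of 8.12, 7.57, 7.57 and 7.88. The others were Hhipl1 (8.27), AU021092 (8.24), Akr1c14 (8.01), Ism1 (7.85) and Klhl4 (7.72). In each of the 12 genes the double-positive median was at most 1.52 CPM, so these log2FC values rest on few counts there.

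Toward double-positive cells, Myo18b, an unconventional myosin, stood at 156, 193 and 244 CPM in double-positive cells against 1.52, 4.02 and 8.08 CPM in CaMKII-positive cells (log2FC -5.89 ± 0.27, p.adj = 1.67e-10). Gpr34, a lysophosphatidylserine receptor of microglia, stood at 788, 909 and 1114 in double-positive and 10.9, 32.3 and 56.2 CPM in CaMKII-positive libraries (log2FC -5.22 ± 0.29, p.adj = 9.63e-10). Fcrls, an Fc receptor-like protein of microglia, stood at 1089, 1274 and 1595 CPM in double-positive libraries and 20.3, 45.7 and 65.9 CPM in CaMKII-positive libraries (log2FC -5.21 ± 0.21, p.adj = 5.88e-11). The rule that named these 3 genes required the same direction in every mouse. Bank1, a scaffold protein of B cell signalling, followed with a log2FC of -5.42, at 85.9, 110.5 and 162 CPM against 0.508, 4.23 and 6.66 CPM. Hpgd, which degrades prostaglandins, reached -5.13, at 231, 249.7 and 326 CPM against 2.31, 11.3 and 18.4 CPM. The remaining genes were Capns2 (-5.27), Lilra5 (-5.26), Upk1b (-5.23), Lpar2 (-5.19), Chst8 (-5.16), AC154187.1 (-5.45) and AC102342.2 (-5.23).

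Genes that handle glutamate and GABA were described as a group because both labels name neurons defined by these transmitters. Of 13 genes, 11 were higher in CaMKII-positive and 1 in double-positive cells, beside 20.0% and 15.5% of all genes. The median log2FC of the group was 4.24, against 0.07 for all genes. Glul, glutamine synthetase, was high in both populations, at 3993, 5114 and 5927 CPM in CaMKII-positive cells against 1638, 1844 and 2140.4 CPM in double-positive cells (log2FC 1.28 ± 0.10, p.adj = 5.67e-08). Slc6a11, the GABA transporter GAT3, had means of 893 and 21.9 CPM (log2FC 5.31). Gad2, the second GABA-synthesising enzyme, was not called, with means of 1.04 and 0.613 CPM.

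Of 14 glutamate receptor genes, 12 were higher in CaMKII-positive and 0 in double-positive cells, beside 20.0% and 15.5% of all genes (median log2FC 3.97). Grin2c, an NMDA receptor subunit, stood at 213, 503 and 1098 in CaMKII-positive and 6.71, 11.2 and 25.1 CPM in double-positive libraries (log2FC 5.02 ± 0.29, p.adj = 1.48e-09). Gria2, an AMPA receptor subunit, stood at 125, 385 and 884 CPM in CaMKII-positive libraries and 5.35, 7.25 and 14.1 CPM in double-positive libraries (log2FC 5.48 ± 0.32, p.adj = 1.69e-09). Grm3, a metabotropic receptor, stood at 232, 399 and 513 CPM in CaMKII-positive cells against 5.79, 9.87 and 23.1 CPM in double-positive cells (log2FC 4.92 ± 0.19, p.adj = 4.33e-11). Means of these 3 genes in ACSA2-positive cells were 822, 525 and 701 CPM, so each was at least as high there as in CaMKII-positive cells. Grin2a and Grik1 were not called. Of 10 genes for water, potassium and gap junctions, 9 were higher in CaMKII-positive cells, beside 20.0% of all genes (median 5.14). Aqp4, the water channel of astrocyte endfeet, had means of 672 and 21.3 CPM (log2FC 4.93). The astrocyte marker sum moved with these groups in all 9 mice, but it shares members with them, Aqp4, Gja1, Gjb6, Atp1b2 and Slc4a4 with the last and Slc1a2 and Slc1a3 with the transporters, and its part in them was not tested.

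Of 10 genes of barrier and transport, 9 were higher in CaMKII-positive cells, beside 20.0% of all genes (median log2FC 4.16). Slco1c1, a thyroid hormone transporter of brain endothelium and astrocytes, stood at 1042, 1153 and 1571 in CaMKII-positive and 8.76, 14.5 and 53.7 CPM in double-positive libraries (log2FC 6.06 ± 0.29, p.adj = 1.9e-10). Cldn5, the main claudin of the barrier, had means of 574 and 5.59 CPM (log2FC 7.17). Tjp1, a scaffold of tight junctions, did not overlap but stayed under the fold threshold, at 669, 834 and 1318 CPM in CaMKII-positive libraries and 437, 524 and 569 CPM in double-positive libraries (log2FC 0.60 ± 0.12, p.adj = 0.000859). The endothelial marker sum, which shares Cldn5, Slc2a1, Abcb1a and Mfsd2a with this group, moved in the same direction in all 9 mice, and its part was not tested.

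Transcription factors split by lineage. All 12 factors of the astrocyte lineage were higher in CaMKII-positive cells and none overlapped, beside 20.0% and 14.8% of all genes (median log2FC 5.14). Sox9, a factor that specifies glia, stood at 360.5, 395 and 519 CPM in CaMKII-positive cells against 2.47, 7.43 and 13.3 CPM in double-positive cells (log2FC 5.54 ± 0.25, p.adj = 1.37e-10). Nfib, of the nuclear factor I family, stood at 329, 404 and 462 in CaMKII-positive and 3.32, 6.25 and 15.4 CPM in double-positive libraries (log2FC 5.76 ± 0.23, p.adj = 5.58e-11), whereas its relatives Nfia and Nfix differed less (log2FC 1.18 and 1.27), with means of 128 and 94.2 CPM in double-positive cells. Of 8 endothelial factors, 7 were higher in CaMKII-positive cells, beside 20.0% of all genes (median 6.79). Epas1, the hypoxia factor HIF2 alpha, stood at 1408, 1640.4 and 3084 CPM in CaMKII-positive libraries and 11.2, 19.8 and 89.1 CPM in double-positive libraries (log2FC 6.21 ± 0.36, p.adj = 1.58e-09). Sox17, a factor of arterial endothelium, stood at 86.2, 130.5 and 268 CPM in CaMKII-positive cells against 0, 0.392 and 7.52 CPM in double-positive cells (log2FC 7.55 ± 0.68, p.adj = 1.95e-07). Tal1, a factor shared by blood and endothelial lineages, was higher in double-positive cells (log2FC -2.05).

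Of 13 myeloid factors, 12 were higher in double-positive cells, beside 15.5% of all genes (median log2FC -3.99). Mef2a, a MADS-box factor, stood at 1212, 1306 and 1621 in double-positive and 183, 232 and 258 CPM in CaMKII-positive libraries (log2FC -2.79 ± 0.10, p.adj = 2.46e-11). Sall1, a zinc finger factor of microglial identity, stood at 945, 1077 and 1263 CPM in double-positive libraries and 59.1, 122 and 154 CPM in CaMKII-positive libraries (log2FC -3.44 ± 0.16, p.adj = 1.79e-10). Spi1, which encodes PU.1, had means of 193 and 13.9 CPM (log2FC -4.16). Fli1, an ETS factor that endothelial cells also express, stayed under the fold threshold (log2FC -0.96, p.adj = 0.00013). The summed list in double-positive libraries, 7398 to 8124 CPM, stood beside 7648 to 8289.5 CPM of CD11b-positive cells.

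Of 13 complement genes tested, 8 were higher in double-positive cells, beside 15.5% of all genes, and 3 in CaMKII-positive cells, a share close to the 20.0% of all genes (median log2FC -3.55). The C1q genes C1qa and C1qb, which encode the other chains of the complex, had log2FC values of -4.07 and -4.18. C3, the central component, was higher in CaMKII-positive cells, at 8.08, 21.1 and 113 CPM in CaMKII-positive cells against 0.706, 7.36 and 40.7 CPM in double-positive cells with overlapping ranges (log2FC 1.50 ± 0.43, p.adj = 0.00949), but was not called without the mouse as a block (log2FC 1.05, p.adj = 0.176). The inhibitors Serping1 and Cd59a shared that direction (log2FC 4.15 and 7.25).

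Of 14 genes of Toll-like receptors and partners, 12 were higher in double-positive and 0 in CaMKII-positive cells, beside 15.5% and 20.0% of all genes. The median log2FC of the group was -3.35. Tlr7, a sensor of single-stranded RNA, stood at 284, 319.5 and 345 in double-positive and 1.99, 21.1 and 33.0 CPM in CaMKII-positive libraries (log2FC -4.51 ± 0.36, p.adj = 4.5e-08). Tlr3, a sensor of double-stranded RNA, ran the other way just under the fold threshold, at 172, 202 and 280.5 CPM in CaMKII-positive libraries and 70.4, 95.8 and 109.6 CPM in double-positive libraries without overlap (log2FC 0.97 ± 0.11, p.adj = 2.46e-06), and passed it with DESeq2 and its size factors (log2FC 1.07), by library size alone (1.17), with mice 3 and 8 included (1.43), and without mouse 2 or 17 (1.01 and 1.08). Tlr8 was not called. Purinergic receptors and ectonucleotidases divided, with 6 of 13 genes higher in CaMKII-positive and 7 in double-positive cells, beside 20.0% and 15.5% of all genes (median -1.64). P2ry13, an ADP receptor, stood at 621, 814 and 1033 CPM in double-positive cells against 8.36, 33.2 and 59.3 CPM in CaMKII-positive cells (log2FC -4.95 ± 0.33, p.adj = 6.87e-09). Entpd1, the ectonucleotidase CD39, stood at 745, 884 and 946 in double-positive and 87.4, 119 and 168 CPM in CaMKII-positive libraries (log2FC -3.03 ± 0.13, p.adj = 6.88e-11). P2ry1, the adenosine receptors Adora1 and Adora2b, and the ectonucleotidases Entpd2 and Nt5e were higher in CaMKII-positive cells, with log2FC values of 6.05, 4.49, 5.39, 6.21 and 6.42. Adora3 was higher in double-positive cells (-4.60). The microglia marker sum, which shares the C1q genes and Itgam with the complement group and single genes with other groups, was higher in double-positive libraries of all 9 mice, and its part in these groups was not tested.

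Of 14 lysosomal genes and proteases, 13 were higher in double-positive cells, beside 15.5% of all genes (median log2FC -2.58). Lamp1, a structural membrane protein of lysosomes, was not called. Ctss, a cathepsin of myeloid cells, stood at 2215, 2599 and 2842 CPM in double-positive libraries and 81.2, 276 and 728 CPM in CaMKII-positive libraries (log2FC -3.63 ± 0.33, p.adj = 2.54e-07). Laptm5, a lysosomal membrane protein of haematopoietic cells, stood at 2183, 2499 and 3271 CPM in double-positive cells against 78.4, 183 and 466 CPM in CaMKII-positive cells (log2FC -4.13 ± 0.30, p.adj = 1.52e-08). Of 13 cholesterol genes, 11 were higher in CaMKII-positive and 2 in double-positive cells, beside 20.0% and 15.5% of all genes (median 2.86). The 11 held all 9 genes of synthesis and the carrier Apoe, and the 2 were the exporters Abca1 and Abcg1. Hmgcs1, an early enzyme of synthesis, stood at 245, 357 and 454 in CaMKII-positive and 33.0, 44.3 and 51.5 CPM in double-positive libraries (log2FC 2.86 ± 0.10, p.adj = 2.66e-11). Abca1 stood at 794, 975 and 1159 CPM in double-positive libraries and 349, 523 and 614 CPM in CaMKII-positive libraries (log2FC -1.19 ± 0.13, p.adj = 1.27e-06), and its call was lost when libraries were scaled by size alone and with mice 3 and 8 included.

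Genes that respond to cell dissociation and activity were higher in double-positive cells (median log2FC -1.96). Of 13, 10 were called in that direction and 0 in the other, beside 15.5% and 20.0% of all genes. Egr1, an immediate early zinc finger factor, stood at 3205, 3818 and 4102 CPM in double-positive cells against 283, 387 and 559 CPM in CaMKII-positive cells (log2FC -3.46 ± 0.12, p.adj = 2.22e-11). Jun, a subunit of the factor AP1, stood at 3654, 4370.1 and 5474 in double-positive and 621, 845 and 1195 CPM in CaMKII-positive libraries (log2FC -2.60 ± 0.11, p.adj = 8.84e-11). Fos, its partner, stood at 1741, 2691 and 3051 CPM in double-positive libraries and 560.4, 816 and 1164 CPM in CaMKII-positive libraries (log2FC -1.87 ± 0.13, p.adj = 7.12e-09). None of these overlapped, and the heat shock genes Hspa1a and Hspa1b, which are near-identical copies, and the receptor Nr4a1 were not called. The summed list was 4271 to 9218 CPM in CaMKII-positive and 19115 to 30337 CPM in double-positive libraries, beside 819.9 to 2486 CPM in ACSA2-positive and 17438 to 25410.2 CPM in CD11b-positive libraries. The microglia marker sum was also higher in the double-positive library of all 9 mice, and its part in this group was not tested. Of 12 housekeeping genes, 5 were higher in double-positive cells and 1, Pgk1, in CaMKII-positive cells, beside 15.5% and 20.0% of all genes (median -0.53). Actb, beta actin, stood at 4726, 5235 and 6209 CPM in double-positive cells against 1842, 2239 and 3357 CPM in CaMKII-positive cells (log2FC -1.33 ± 0.14, p.adj = 1.03e-06), whereas Gapdh, a glycolytic enzyme, stood at 670.0, 779 and 932 in CaMKII-positive and 443, 507 and 532 CPM in double-positive libraries (log2FC 0.45 ± 0.091, p.adj = 0.000685). Eef1a1 was at the fold threshold and lost its call without mouse 2, 16, 17, 18 or 22, without the block, under DESeq2 and its size factors (log2FC -0.90) and by library size alone (-0.80).

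**Figure D3:**
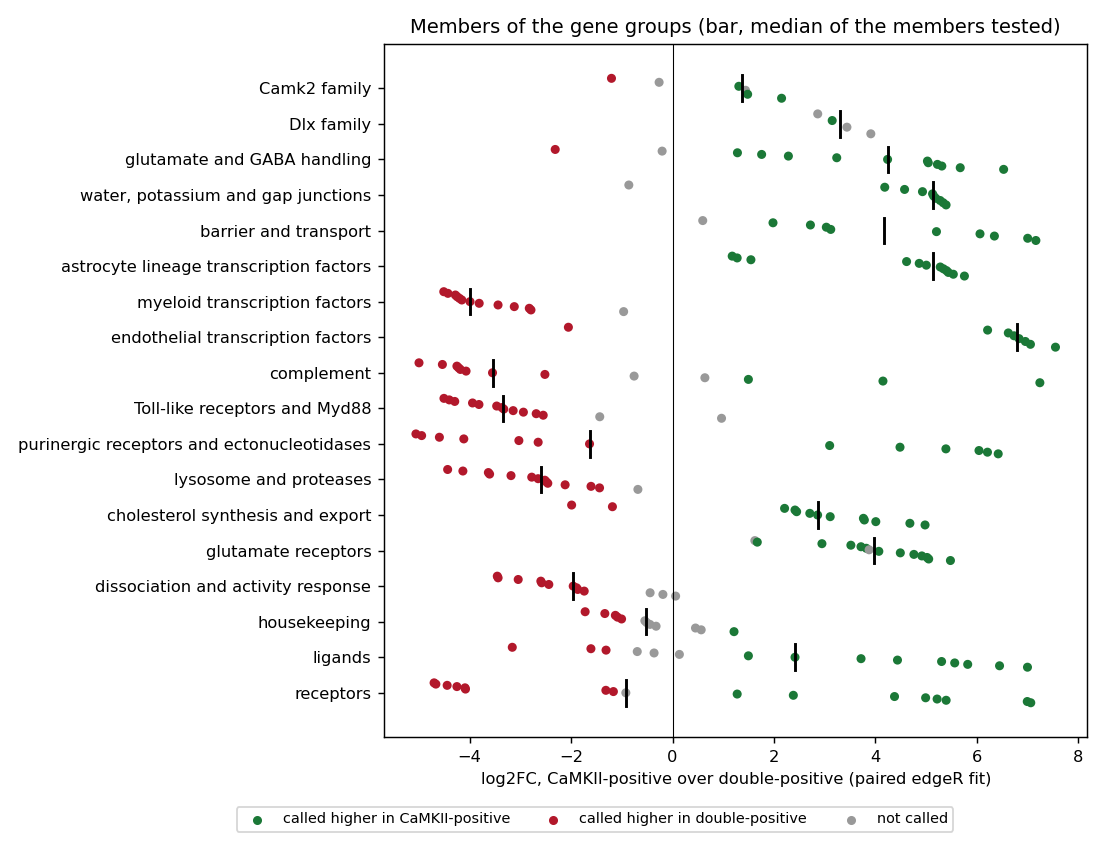
Fitted log2FC of each tested member of 18 gene groups, CaMKII-positive over double-positive; green and red points were called higher in CaMKII-positive and double-positive cells, grey points were not called, and bars are medians. The members of the astrocyte factor and barrier groups lie right of 0 and those of the myeloid factor group left of 0, while purinergic genes, complement genes and receptors fall on both sides, as do single members of other groups such as Tal1 and Tlr3.

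Ligands and their receptors were set side by side in 18 pairs. In 6 pairs the ligand was higher in CaMKII-positive and the receptor in double-positive cells, in 4 both were higher in CaMKII-positive, in 2 both were higher in double-positive, and in 1 the ligand was higher in double-positive and the receptor in CaMKII-positive cells. The other 5 held a gene that was not called. The survival factor Il34, a ligand of Csf1r, stood at 3.62, 7.42 and 12.3 CPM in CaMKII-positive libraries and 0, 0.0560 and 1.02 CPM in double-positive libraries (log2FC 5.57 ± 0.81, p.adj = 3.55e-05). Csf1, the second ligand of that receptor, stood at 75.0, 115 and 175 CPM in CaMKII-positive cells against 61.1, 138 and 284 CPM in double-positive cells and was not called (p.adj = 0.171). Cx3cl1, fractalkine, stood at 39.0, 55.8 and 131 in CaMKII-positive and 0.961, 3.00 and 3.28 CPM in double-positive libraries (log2FC 4.44 ± 0.30, p.adj = 6.75e-09), opposite to its receptor Cx3cr1. Apoe, a lipid carrier, stood at 1044, 1405 and 2184 CPM in CaMKII-positive libraries and 159, 219.6 and 323 CPM in double-positive libraries (log2FC 2.42 ± 0.13, p.adj = 5.16e-10). Trem2, a lipid receptor of microglia that binds Apoe, stood at 449, 481 and 542 CPM in double-positive cells against 6.38, 19.9 and 49.4 CPM in CaMKII-positive cells (log2FC -4.67 ± 0.28, p.adj = 2.55e-09). Lrp1, another receptor of Apoe, was present in both populations (means 1174 and 1895 CPM, not called).

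The remaining pairs of that kind were Tgfb2 with Tgfbr2, Il33 with Il1rl1, and C3 with C3ar1. Tgfb2, a transforming growth factor, stood at 67.2, 80.7 and 121 in CaMKII-positive and 0.141, 1.41 and 3.16 CPM in double-positive libraries (log2FC 5.82 ± 0.38, p.adj = 4.97e-09). Tgfb1, its relative, was higher in double-positive cells, at 562, 606 and 669 CPM against 41.1, 80.6 and 107 CPM (log2FC -3.16 ± 0.15, p.adj = 2.68e-10), as was their receptor Tgfbr2 (log2FC -1.31 ± 0.16, p.adj = 6.49e-06). Il33, an alarmin, stood at 31.3, 59.4 and 89.0 CPM in CaMKII-positive libraries and 0.494, 0.939 and 5.03 CPM in double-positive libraries (log2FC 5.31 ± 0.36, p.adj = 9.23e-09), and its receptor Il1rl1 at 8.31, 10.9 and 22.5 CPM in double-positive cells against 0, 1.65 and 4.43 CPM in CaMKII-positive cells (log2FC -4.09 ± 0.90, p.adj = 0.00152). Both partners of the vascular pairs were higher in CaMKII-positive cells. Vegfa, the endothelial growth factor, stood at 222, 501 and 954 in CaMKII-positive and 16.2, 31.7 and 49.2 CPM in double-positive libraries (log2FC 3.72 ± 0.32, p.adj = 1.3e-07), beside its receptors Flt1 and Kdr (log2FC 7.00 and 4.38). Angpt1 and its receptor Tek had log2FC values of 7.00 and 7.07, and Dll4 and its receptor Notch1 6.45 and 1.28. Pdgfb was the exception, higher in double-positive cells at 312, 355 and 496 CPM against 124, 159.5 and 334 CPM, lower in the CaMKII-positive library of 9 of 9 mice with overlapping ranges (log2FC -1.31 ± 0.14, p.adj = 2.02e-06), while Pdgfrb was higher in CaMKII-positive cells. Pros1 and its receptor Mertk, which take part in the uptake of dying cells, were both higher in double-positive cells (log2FC -1.61 and -1.17), and Mertk lost its call without mouse 17 and when libraries were scaled by size alone.

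**Figure D4:**
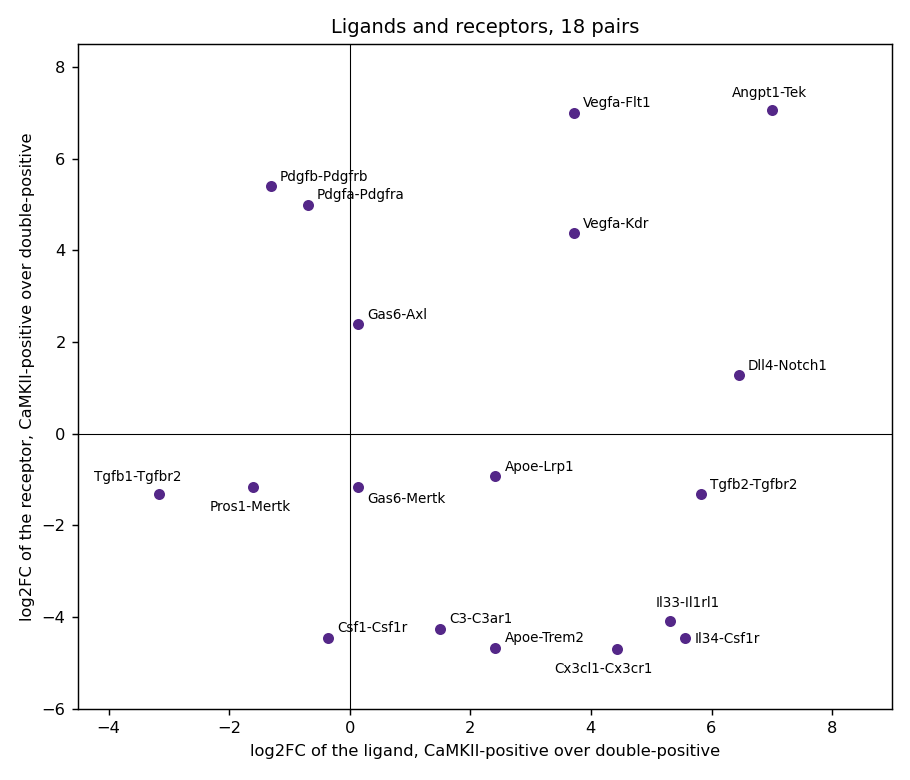
Fitted log2FC of the ligand against that of the receptor for 18 pairs, CaMKII-positive over double-positive. The 6 called pairs at lower right have the ligand higher in CaMKII-positive and the receptor higher in double-positive cells, and the 4 vascular and Notch pairs lie at upper right.

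Whether the populations differed from each other as ACSA2-positive and CD11b-positive cells did was tested as a contrast over 36 libraries of the same mice, (CaMKII-positive minus double-positive) minus (ACSA2-positive minus CD11b-positive). It called 2411 of 31433 genes higher (7.67%) and 1115 lower (3.55%), with a median of -0.02 over all genes. The contrast shares its CaMKII-positive and double-positive libraries with the comparison above, and the antibody-sorted cells came from another cortical region, so region and sort cannot be told apart. All 13 astrocyte genes were lower in the contrast (median -3.38) and 15 of 16 microglia genes higher (median 4.23). The 2 lists thus differed less between CaMKII-positive and double-positive cells than between the antibody-sorted cells. Slc1a2 averaged 22091 ± 2298 CPM in ACSA2-positive and 67.2 ± 26.4 CPM in CD11b-positive cells (SD, n = 9; contrast -3.26 ± 0.32, p.adj = 3.6e-09). Csf1r averaged 13.5 ± 10.3 and 7296 ± 947 CPM (contrast 4.98 ± 0.57, p.adj = 5.39e-08). Sall1 was the microglia gene not called (contrast -0.01 ± 0.16, p.adj = 1), with 128 CPM in ACSA2-positive and 116 CPM in CaMKII-positive cells.

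The endothelial list differed more between the virus-labelled cells than between the antibody-sorted cells. Of 14, 12 were higher in the contrast and 0 lower (median 2.95), and their sum in ACSA2-positive cells was 820.2, 1489.8 and 2629.8 CPM, against 6276, 7939 and 17088 CPM in CaMKII-positive cells. Flt1 averaged 2439 CPM in CaMKII-positive and 309 CPM in ACSA2-positive cells (contrast 3.41 ± 0.69, p.adj = 0.000379). Of 10 oligodendrocyte precursor genes, 4 were higher in the contrast, among them Pdgfra, with 115 and 5.47 CPM in the same 2 populations (3.31 ± 0.64, p.adj = 0.000205), and Gpr17, a receptor of committed precursors, with 80.9 and 2.42 CPM (3.45 ± 0.59, p.adj = 4.07e-05). Of 10 mature oligodendrocyte genes, 3 were higher, where 7.67% of all genes were. Of 10 mural genes, 0 were higher and 1 was lower, beside 3.55% of all genes: Pdgfrb (-2.28 ± 0.49, p.adj = 0.000826). All 13 dissociation and activity genes were higher in the contrast (median 1.67), a group that differed less between the virus-labelled populations (median log2FC -1.85) than between ACSA2-positive and CD11b-positive cells (-3.63), and all 10 genes for water, potassium and gap junctions were lower (median -3.50).

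Of the 8 genes named for the widest contrast on the higher side, 3 were class II genes. H2-Aa, H2-Ab1 and H2-Eb1, chains of the class II histocompatibility complex, were present in 3 populations and nearly absent from ACSA2-positive cells. H2-Ab1 stood at 32.4, 126 and 747 CPM in CaMKII-positive libraries and 3.24, 18.7 and 131 CPM in double-positive libraries, and averaged 109 CPM in CD11b-positive and 0.109 CPM in ACSA2-positive cells (contrast 12.15 ± 1.08, p.adj = 6.54e-10). H2-Aa and H2-Eb1 gave contrasts of 12.56 and 12.03. Cybb, the phagocyte oxidase subunit, stood at 7.99, 18.4 and 146 CPM in CaMKII-positive cells against 7.42, 15.1 and 25.6 CPM in double-positive cells (not called, p.adj = 0.204), and averaged 46.6 and 0.00385 CPM in CD11b-positive and ACSA2-positive cells. Plbd1, a phospholipase B-like protein of granulocytes, stood at 2.63, 16.2 and 82.1 in CaMKII-positive and 0, 0.498 and 2.07 CPM in double-positive libraries (log2FC 4.67 ± 0.56, p.adj = 5.05e-06). It averaged 17.9 CPM in CD11b-positive cells, at least 1341-fold above ACSA2-positive cells, where it had 0 counts. The granule genes Ltf and Ngp had medians of 0 CPM in both virus-labelled populations. Their means were 31.3 and 47.0 CPM in CD11b-positive cells, against 0 and 0.00391 CPM in ACSA2-positive cells. The contrasts of Ltf and Ngp thus rest mainly on the antibody-sorted cells. Igkc, an immunoglobulin light chain constant gene whose reads may be shared with related genes, ranged widely, at 0, 30.9 and 1664 CPM in CaMKII-positive libraries and 0, 6.11 and 141 CPM in double-positive libraries (log2FC 4.11 ± 0.59, p.adj = 6.34e-05).

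The 8 genes named on the lower side were each also higher in CaMKII-positive than in double-positive cells, without overlap. Hapln1, a link protein of the extracellular matrix, stood at 135, 206 and 272 CPM in CaMKII-positive cells against 2.47, 3.42 and 9.53 CPM in double-positive cells (log2FC 5.26 ± 0.23, p.adj = 8.87e-11), and averaged 360.2 CPM in ACSA2-positive and 0.214 CPM in CD11b-positive cells (contrast -5.42 ± 0.49, p.adj = 9.23e-10). Gdf10, a member of the bone morphogenetic protein family, gave -8.26 ± 0.51, p.adj = 1.3e-12, and averaged 21.8, 1.65, 51.8 and 0.00870 CPM in CaMKII-positive, double-positive, ACSA2-positive and CD11b-positive cells. Cth, an enzyme of cysteine synthesis, had 0 counts in CD11b-positive cells, and ACSA2-positive cells were at least 3035-fold and double-positive cells at least 82.7-fold higher. Ptchd4 and Rarres2 also had 0 counts in CD11b-positive cells, with means of 0.313 and 0.276 CPM in double-positive cells, and Rarres2 shares over 25% of its exon bases with another gene. The others were Fam69c (-6.21), Sypl2 (-5.56) and Cideb (-5.63), of which Cideb also shares exon bases. Across 19534 genes with a mean of at least 1 CPM in a population, the 2 differences correlated at r = 0.818 (Spearman 0.856), a description over genes, which are not independent, from libraries of the same mice.

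**Figure D5:**
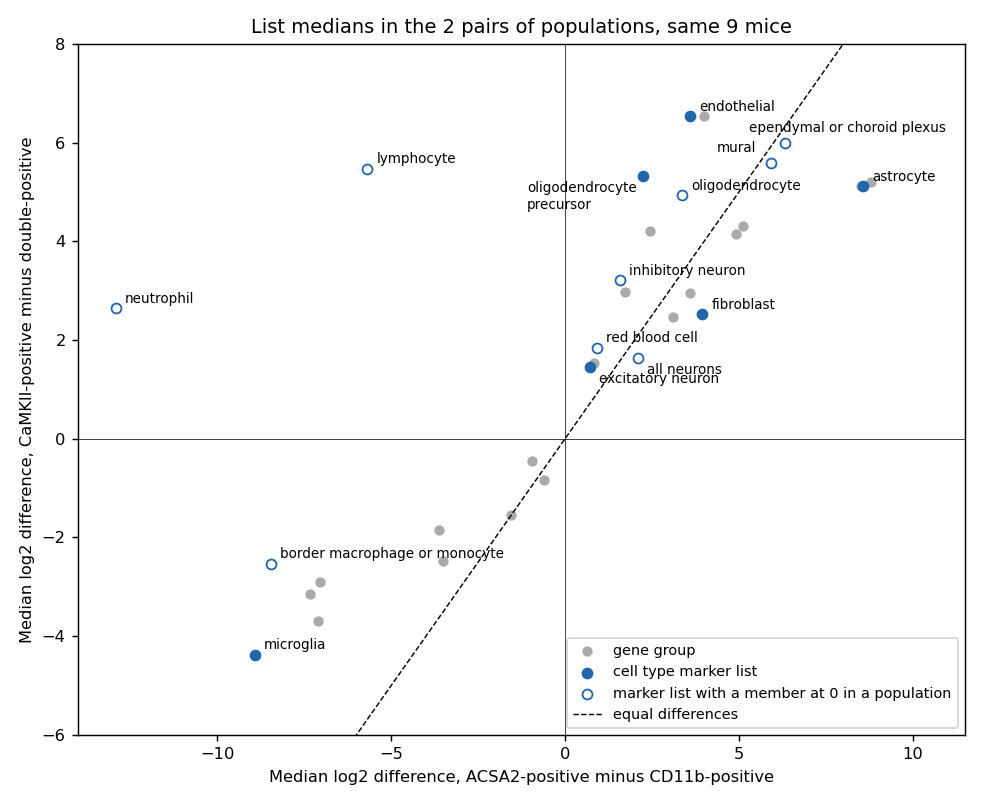
Median log2 difference of each list between CaMKII-positive and double-positive cells (vertical) against that between ACSA2-positive and CD11b-positive cells (horizontal), from the fit over 36 libraries; blue points are cell type marker lists, open where a member had a mean of 0 in a population and fitted values are not bounds, grey points are other gene groups, and the dashed line marks equal differences. Astrocyte and microglia lists lie nearer 0 on the vertical than on the horizontal axis, and the endothelial list lies above the line.

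The difference between the populations was last compared between burn and sham mice. The edgeR term for population by treatment called 0 of 29558 genes (0%), with 429 genes at an unadjusted p under 0.05 and a smallest p.adj of 1. DESeq2 also called 0, with 873 genes under 0.05. In simulated counts the edgeR term recovered 43 of 100 known changes of log2 2 and 69 of 100 of log2 4. The absence of calls thus does not show that the difference was equal in burn and sham mice. Slc1a2 gave mean log2 ratios, taken on CPM + 0.5, of 5.12 ± 0.55 in 4 burn and 5.35 ± 0.69 in 5 sham mice (SD), and Csf1r gave -3.95 ± 0.85 and -4.49 ± 0.99. Camk2a gave 1.55 ± 1.86 and 1.77 ± 0.93, and Gad1 2.02 ± 1.57 and 1.78 ± 0.55. Each of these pairs of means lay within 1 SD of each other. The smallest unadjusted p values belonged to 2 immunoglobulin heavy chain genes, Ighg2b (term -5.10 ± 0.96, p.adj = 1) and Ighv1-59 (term -10.04 ± 1.83, p.adj = 1). Ighg2b had its highest levels in sham mouse 19, at 1449 CPM in the CaMKII-positive and 74.4 CPM in the double-positive library, and was called without mouse 20 (term -6.83). Ighv1-59 had counts in mice 18 and 20 alone, at 39.3 and 56.3 CPM in CaMKII-positive libraries and 0 and 46.0 CPM in double-positive libraries. Members of both gene families share sequence, so their counts are uncertain.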

How the data were processed

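Sorted cells from 9 mice were profiled by stranded total RNA sequencing after ribosomal RNA depletion. The authors trimmed reads with fastp, aligned them with STAR to GRCm39 (the processing notes also list mm10) and counted them per Ensembl gene with GenomicAlignments. The deposited values used here are these raw read counts. Whether the counting used strand is not given in the sources used here, so overlapping and antisense genes are uncertain. Deposited transformed values were not used. Some genes of the lists are not reported here by name.

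Symbols were matched for 52073 of 56980 gene identifiers. Mouse numbers in the labels paired the libraries, since both populations came from one suspension of the same animal (correlation of paired deviations 0.0263 to 0.109). The model was edgeR 4.0.16 (R 4.3.3), with TMM scaling, genes of at least 10 counts in all, mouse as a block, and quasi-likelihood tests adjusted by Benjamini-Hochberg. Genes were called where p.adj did not exceed 0.05 and log2FC was 1 or more in either direction. Population by treatment and the contrast with antibody-sorted cells were fitted in the same way, the latter over 36 libraries and 31433 genes. CPM used total counts. Composition was tested by exact sign flips over 9 pairs. Exon lengths came from GENCODE M21 (GRCm38), used for length only, and promoters from RefSeq (GRCm38.p6). Python 3.11.15 and matplotlib 3.10.9 made the tables and figures. The tests were checked on simulated counts with known changes. Of changes of log2 2 and 4, the population comparison recovered 58.6% and 78.8%, the burn term 43% and 69%, and the contrast 52% and 73%. False calls numbered 5, 20 and 2. No pair of the 18 libraries agreed within sampling noise (lowest chi-square per degree of freedom 15.9 over 153 pairs). Floors cover counting error only, whereas the standard errors and SDs also hold the spread between mice.

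The members, gene lists and tests were chosen with earlier results of these data known. Named genes were the 4 markers, up to 4 members with the highest mean CPM of each of 33 lists, the ligands and receptors of 18 pairs, the 12 widest differences per direction, the 2 smallest p values for burn and the 8 widest contrasts per direction with at least 20 CPM. Other list members were named after their values were seen. Alternatives were DESeq2 1.42.0, DESeq2 size factors, library size alone, no filter, filterByExpr, no minimum fold change, no mouse block, mice 3 and 8 included, and each mouse left out.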

Additional observations from a re-analysis of the deposited data

Results flagged for a closer look

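In 13 of 46 groups of 9 libraries, the highest or lowest library stood apart from the rest, with a gap to its nearest neighbour of over 0.493 of the whole range. Chance would flag about 1 in 20 groups of normally distributed values. Many of these measures were skewed or mostly 0 and came from the same libraries, so that rate need not hold here. Of the 13, 7 were libraries of mouse 2. Its CaMKII-positive library held 134703744 counts (others 13346143 to 29696946), 25537 genes with at least 10 counts (others 18011 to 18956) and 62.2 CPM of neutrophil genes (others 0 to 5.38). Its double-positive library gave 15.2% of counts to the 50 highest genes (others 16.5% to 17.8%), 603 CPM to endothelial genes (others 162 to 232), 67.2 CPM to mural genes (others 13.1 to 34.7) and 0.914 CPM to red blood cell genes (others 0 to 0.336).

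The CaMKII-positive library of mouse 24 stood apart in Camk2a, at 348 CPM (others 17.8 to 136), in the excitatory neuron list, at 822 CPM (others 376 to 565), and in the red blood cell list, at 21.6 CPM (others 0 to 7.51). Its double-positive library held 62.4 CPM of oligodendrocyte precursor genes (others 6.64 to 26.2). The double-positive library of mouse 15 held 4.56 CPM of inhibitory neuron genes (others 1.25 to 2.73). The double-positive library of mouse 18 held 37.8 CPM of ependymal and choroid plexus genes (others 0 to 3.45). The causes were not tested.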

How the results depend on the processing

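The number of genes differing between CaMKII-positive and double-positive cells, 10492, lay between 9587 and 10165 when each mouse was left out in turn, with the lowest value without mouse 2. It was 10291 to 10819 with the other scalings, filters and DESeq2, and 13844 with no minimum fold change. Under each scaling, filter, DESeq2, left-out mouse and the fit without the block, 0 genes were called in the opposite direction. Scaling by library size moved the share of calls higher in CaMKII-positive cells from 56.5% to 62.0%. Without the replicate block, 11962 genes were called (7035 and 4927), 0 for burn and 4339 for the contrast (2920 and 1419), and among the named genes the block decided the calls of C3, Dlx5 and Eef1a1. The pairing rests on the shared animal, and 7 of 9 CaMKII-positive libraries correlated best with their own double-positive library. For burn, leaving out a mouse gave 0 to 1 genes, lower, and including mice 3 and 8 gave 11 (9 higher and 2 lower). For the contrast, leaving out a mouse gave 3196 to 3501 genes. With no minimum fold change it called 5326 genes, 1983 of them lower, and DESeq2 called 1991 lower. The difference in the share of the 50 highest genes, -1.79 to -1.37 percentage points with a mouse left out, lost its call in 6 of these. Among values of single named genes, 2797 kept their direction and side of the threshold, 40 lost the call and 17 gained it. List medians moved by more than their spread in 12 values over 7 lists, among them inhibitory neuron (2.55 without mouse 2) and neutrophil (1.57 without mouse 2). The causes were not tested. Depth limits genes near the floors of 0.0223 to 0.225 CPM, such as Slc32a1 and Hba-a1.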
